A study of Homo sapiens with 9 samples.

Results

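The expression of 31 genes of cholesterol and fatty acid synthesis was examined in LX-2 cells, an immortalized human hepatic stellate cell line. The genes were taken by symbol from the table of read counts, all 31 were found among its 20777 genes, and all 31 were among the 13384 genes that passed the filter on low counts. By role they comprise 5 genes of the SREBP machinery (SREBF1, SREBF2, SCAP, INSIG1, INSIG2), 7 of the mevalonate pathway from acetyl-CoA to farnesyl diphosphate (ACAT2, HMGCS1, MVK, PMVK, MVD, IDI1, FDPS), 11 of sterol synthesis (FDFT1, SQLE, LSS, CYP51A1, TM7SF2, MSMO1, NSDHL, HSD17B7, EBP, SC5D, DHCR7), 7 of fatty acid synthesis (ACLY, ACACA, FASN, SCD, ELOVL6, FADS1, FADS2) and the sterol carrier STARD4. The 9 libraries are 3 of control cells, for which the labels name no agent, 3 of cells given TGF-β (labelled day 1) and 3 of cells given TGF-β and uridine (also day 1). By the study's culture methods uridine came after TGF-β, in fresh medium. The TGF-β group therefore serves as the reference for uridine, and no library holds uridine alone. All 3 groups share the LX-2 line, and the labels give its genotype as "wide type". One cell line stands for 1 donor, and the labels do not say whether the 3 libraries of a group came from separate cultures, so that the spread between them may be technical. The study asked how uridine acts on TGF-β-activated stellate cells, including their return to a lipid-storing state.

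SREBP proteins are transcription factors that are made as membrane precursors in the endoplasmic reticulum. SCAP carries them to the Golgi, where they are cut and released to the nucleus, while INSIG proteins hold SCAP back when sterols are plentiful. SREBP-2, the product of SREBF2, mainly drives genes of cholesterol synthesis, and SREBP-1c, one product of SREBF1, mainly drives genes of fatty acid synthesis. Resting stellate cells store retinyl esters and other lipids in droplets, which they lose as they become myofibroblast-like under TGF-β.

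Promoter sequences of members that carry a match to the sterol element, the short motif through which SREBPs bind DNA, are shown first, because SREBF2, one of the members, encodes a factor that binds it. The letters searched were TCACNCNAC on both strands, written down after promoters of these genes had been looked at, in windows from 250 bases before to 50 bases after each RefSeq start (build GRCh38.p14). Windows were matched for 27 of the 31 members, and FDFT1, ACAT2, FASN and SQLE had none and were not searched. In the sequences below, all on the plus strand like the genes themselves, capitals mark the match.

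SREBF2, chr22:41832932-41833020, upstream of the annotated gene, match at -133: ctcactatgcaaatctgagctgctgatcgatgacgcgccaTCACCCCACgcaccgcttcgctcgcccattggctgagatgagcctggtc

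HSD17B7, chr1:162790564-162790652, upstream of the annotated gene, match at -98: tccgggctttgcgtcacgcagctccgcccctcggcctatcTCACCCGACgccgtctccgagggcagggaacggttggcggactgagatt

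FDPS, chr1:155308686-155308774, across the annotated start of the gene, match at -140: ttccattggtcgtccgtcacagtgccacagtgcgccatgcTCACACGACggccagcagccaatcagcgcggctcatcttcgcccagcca

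FADS2, chr11:61815953-61816031, inside the widest annotated span of the gene, match at -220: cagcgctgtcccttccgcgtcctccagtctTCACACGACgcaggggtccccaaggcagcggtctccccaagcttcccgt

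These 4 of the 27 members (14.8%) held a match to these letters, against 3.32% of 15344 listed genes with windows. Because the letters were chosen with promoters of the members in view, this difference in shares is not a test. Other spellings of the element were not searched. A CCAAT box (CCAAT), the motif of the SREBP partner NF-Y, stood in 20 of the 27 (74.1%) against 41.6% of the genes, a GC box (GGGCGG), the motif of Sp1, in 26 (96.3%) against 67.5%, and an E-box (CACGTG) in 4 (14.8%) against 11.1%. All were searched on both strands, and none of the 4 motifs is contained in another. A match describes letters in a window and does not show binding.

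The study followed SREBP1c and FASN by PCR, and its human primers show how those targets relate to the counts used here. The SREBP1c forward primer, in which capitals mark an ATG triplet, matched 4 of 23 annotated SREBF1 transcripts, and the reverse primer matched 7.

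SREBP1c forward: gatcgcggagccATGgattg

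SREBP1c reverse: ccagcatagggtgggtcaaa

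The SREBF1 counts sum over all transcripts of the gene and do not separate SREBP-1a from SREBP-1c. Both FASN primers, acagcggggaatgggtact and gactggtacaacgagcggat, matched the same number of FASN transcripts, 2 of 13.

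Levels between genes were compared in FPKM (reads scaled by gene length and library total), which the authors deposited beside the counts. FDPS, the synthase of farnesyl diphosphate, stood highest with a mean of 211 FPKM over the 9 libraries. SCD, the stearoyl-CoA desaturase, followed with 129 FPKM and FASN, the fatty acid synthase, with 113 FPKM. The sterol isomerase EBP (91.9 FPKM), the ATP citrate lyase ACLY (88.8), the last reductase of cholesterol synthesis DHCR7 (81.4) and the squalene synthase FDFT1 (81.1) came next. Of the regulators, SREBF1 had 57.5 FPKM, SCAP 43.2, SREBF2 30.4 and INSIG1 13.8, while INSIG2 had 0.258. Genes at 10 FPKM or more thus lay beside members of the same pathway below 2 FPKM, namely HMGCS1 (1.61, from 111 to 887 reads per library), IDI1 (1.10, from 45 to 660 reads), STARD4 (0.544), SC5D (0.311), ELOVL6 (0.288) and TM7SF2 (0.255). Except for TM7SF2 (64.2% GC), their transcripts have a low GC content, from 34.2% (STARD4) to 41.2% (ELOVL6). FDPS has 56.0%, SCD 47.1% and FASN 65.3%. FPKM is not corrected for GC content, and its part in these levels was not tested. Summed over all 31 genes, expression was 1161 to 1194 FPKM in the control libraries, 1151 to 1170 with TGF-β and 1128 to 1163 with TGF-β and uridine, and the 3 ranges overlapped. The sum over the 5 SREBP machinery genes was 157 to 162 FPKM in the controls, 132 to 136 with TGF-β and 139 to 147 with TGF-β and uridine. Those FPKM ranges did not overlap, whereas in normalised CPM, which also corrects for library composition, the same sum was 735 to 1066, 706 to 754 and 698 to 795, and all 3 ranges overlapped. SREBF1 is the largest term of the FPKM sum.

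**Figure D1:**
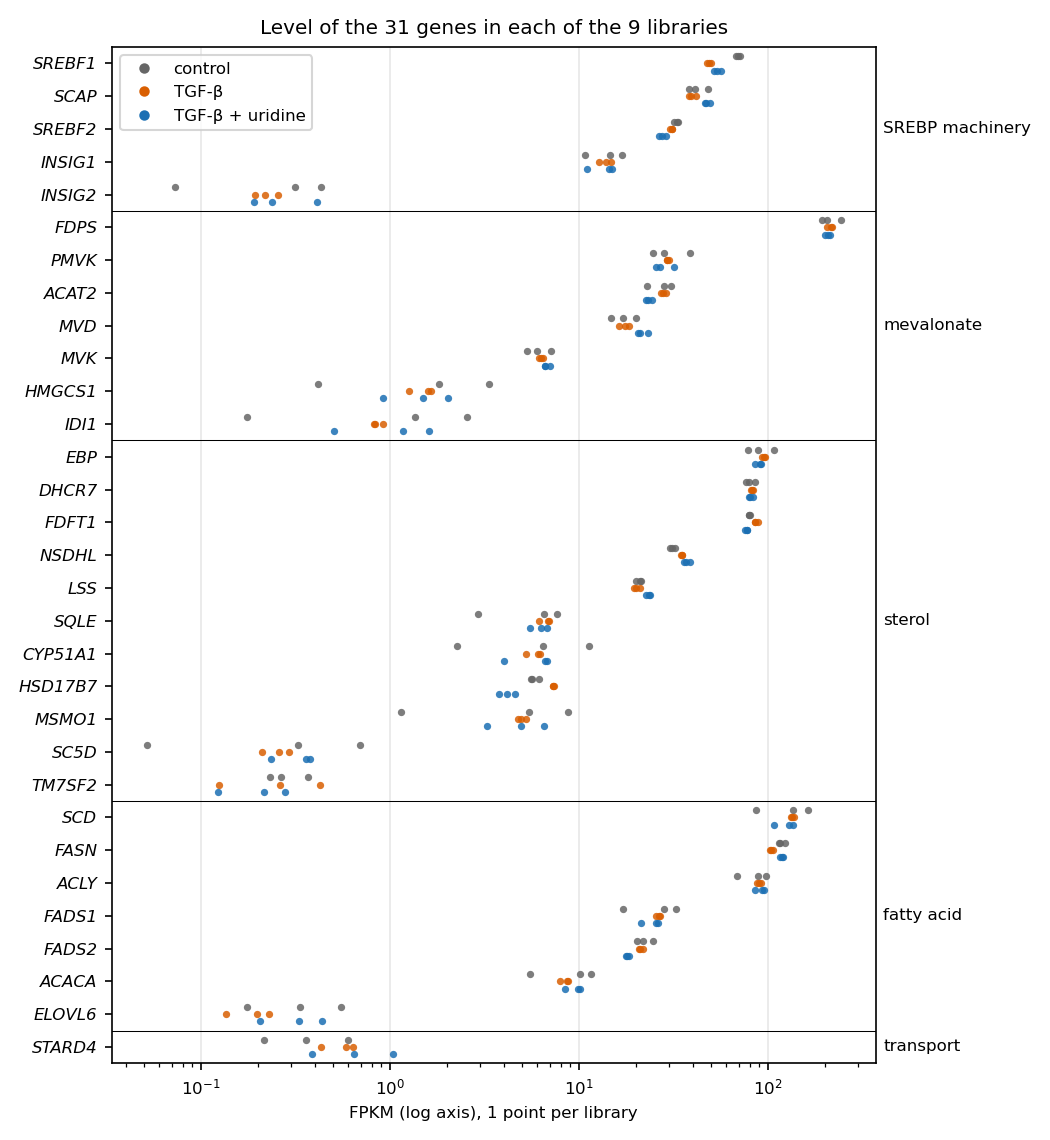
FPKM of the 31 genes (log axis), ordered by role and mean level, with 1 point per library for control (grey), TGF-β (orange) and TGF-β + uridine (blue). Levels run from FDPS at a mean of 211 FPKM to TM7SF2 at 0.255, and the grey points of low genes such as IDI1 and SC5D spread far more widely than the orange ones.

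The libraries themselves differed in a way that touches these genes. All had nearly the same depth, 40539751 to 41467124 counted reads, but the dependence of log2 CPM (normalised CPM) on the GC content of the transcript differed. Its slope, in log2 units per unit of GC fraction, was 13.7, 7.25 and 3.88 in control libraries 1 to 3, between 7.65 and 8.52 under TGF-β, and 7.45, 10.3 and 5.28 in TGF-β + uridine libraries 1 to 3. Control libraries 1 and 3 thus stood at opposite ends of the series. Among the 31 genes the log2 ratio of control 1 to control 3 went with GC content (Pearson r = 0.81, Spearman rho = 0.85 across 31 genes, which share both libraries and are not replicates). For the 9 members under 45% GC, control 1 was the lowest control library in 8, and the exception was HSD17B7. For the 12 members above 55% GC it was the highest in all 12, after TMM normalisation. IDI1, the isomerase of isopentenyl diphosphate, had 45, 346 and 660 reads in control libraries 1 to 3, and 211, 218 and 235 in the TGF-β libraries. HMGCS1, the HMG-CoA synthase, had 111, 474 and 887 reads in the controls against 333, 441 and 419 with TGF-β. Both genes span a wider range among the controls than in either treated group. Over the 9 low-GC members the median ratio of the highest to the lowest library was 4.18 in the controls and 1.27 in the TGF-β group. The part of this spread in the comparisons below was not tested beyond the values given beside them. Those values come from fits with the slope of each library as a covariate, with GC offsets per library, or without control library 1.

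**Figure D2:**
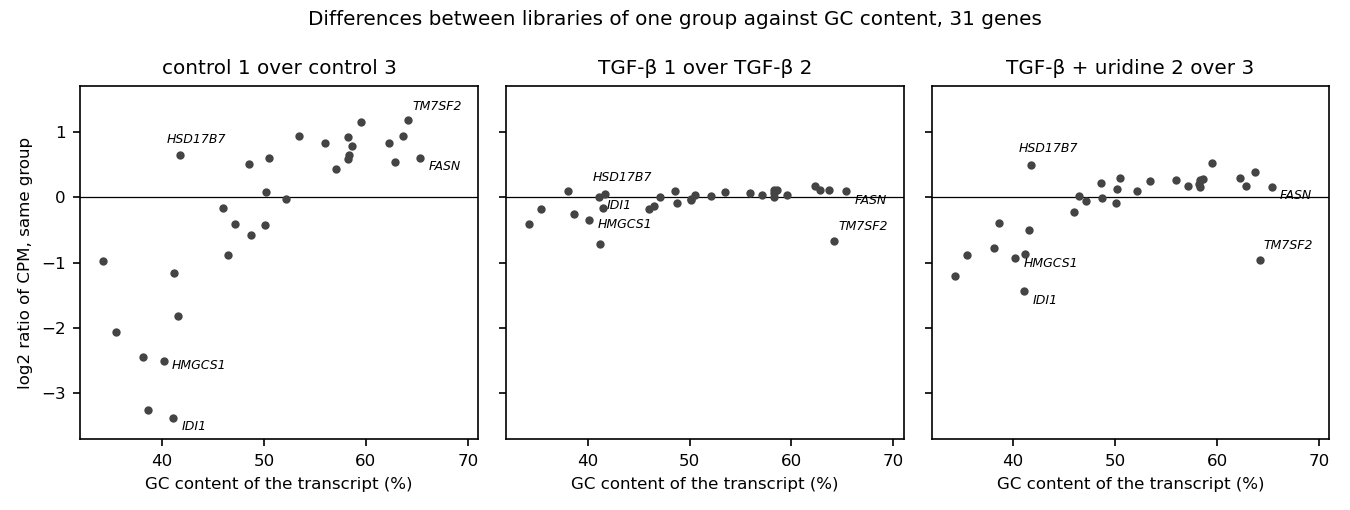
Log2 ratio of normalised CPM between 2 libraries of the same group against the GC content of each gene's longest annotated transcript, 1 point per gene, for control 1 over 3, TGF-β 1 over 2 and TGF-β + uridine 2 over 3. The control ratio runs from 0.0963-fold (IDI1) to 2.26-fold (TM7SF2) and rises with GC content, and HSD17B7 lies apart from the other genes of low GC content.

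Stellate cell genes were present in part. VIM, COL1A1, PDGFRB, ACTA2, TIMP1 and DES were read in every library, as were, at low counts, COL3A1 (17 to 102 reads) and RGS5 (16 to 45), while COL1A2 and HAND2 had at most 1 read in a library. Of the 8 tested, 3 rose with TGF-β, namely ACTA2 (1.58, adjusted p = 0.0106), PDGFRB (1.25, adjusted p = 0.00157) and VIM (0.76, adjusted p = 0.00442), beside 3.38% of all tested genes. For uridine against TGF-β 0 of the 8 passed in edgeR, at an unadjusted p under 0.05 or in DESeq2, and 2 passed with the GC slope described above as a covariate, beside 19.2% of all genes. With GC content handled by offsets per library in place of the covariate, 0 of the 8 passed, beside 2.8% of all genes. KRT7, a keratin of bile duct cells, had 65298 to 128005 reads, while the bile duct markers KRT19 and EPCAM had 36 to 66 and 0 to 5 reads. In summed CPM, 10 stellate cell and fibroblast markers ranged from 1256 to 1602 in the controls, 2197 to 2303 with TGF-β and 1840 to 2174 with TGF-β and uridine, most of it VIM and TIMP1. The sum of the 3 bile duct markers, which is nearly all KRT7, ranged from 1370 to 2608, 3022 to 3157 and 2051 to 2789. A set of 4 hepatocyte markers summed to 1.43 to 2.46 CPM in the controls, 1.52 to 1.66 with TGF-β and 0.884 to 1.12 with TGF-β and uridine, where it lay below both other groups. Most of that sum is HNF4A, with 58 to 79, 54 to 65 and 29 to 35 reads (uridine against TGF-β -0.92, adjusted p = 0.399), while APOA1 and CYP3A4 had no more than 4 reads and SERPINA1 no more than 12. Of 3 macrophage markers, CSF1R rose with TGF-β (log2 fold change 2.04, adjusted p = 0.000405), and their sum was 34.6 to 48.2 CPM in the controls and 62.4 to 84.0 in the treated groups, while CD14 had at most 12 reads. CD68, with 1181 to 1580 reads, had a log2 fold change of 0.32 with TGF-β (adjusted p = 0.486 in edgeR). The macrophage marker PTPRC, the hepatocyte markers ALB and TTR and the stellate cell marker LRAT were not among the genes counted. Of 3 endothelial markers, CDH5 fell (-3.88, adjusted p = 0.0314) from at most 45 reads, while PECAM1, with 38 to 51 reads in the controls and 66 to 106 with TGF-β, had a log2 fold change of 0.91 (adjusted p = 0.168). The endothelial sum was 1.59 to 2.22 CPM in the controls, 1.85 to 2.81 with TGF-β and 2.54 to 2.88 with TGF-β and uridine. The part of these markers in the results for the 31 genes was not tested.

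TGF-β was compared with control to ask how activation moves the lipid synthesis genes. No member passed an adjusted p of 0.05 in edgeR's quasi-likelihood test (0 of 31), where 3.38% of the 13384 tested genes did. In such bulk RNA, fewer cells that express a gene and less of its RNA per cell cannot be told apart. At an unadjusted p under 0.05 there was 1 member, against 12.1% of all genes, and DESeq2 called 1, against 6.43%, SREBF1 in both cases. The median log2 fold change of the members was -0.03, beside -0.05 over all genes tested, with 12 fitted values above 0 and 19 below. In normalised CPM groups did not overlap for 2 of the 31 genes (6.45%) against 17.7% of all tested genes, and in FPKM for 6 (19.4%) against 20.4%.

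SREBF1 (chr17:17810399-17837002, minus strand, GRCh38), which encodes SREBP-1, stood out among the members. Normalised CPM was 461, 345 and 319 in the control libraries and 273, 252 and 255 in the TGF-β libraries. Every TGF-β library lay below every control library, and so they did in the reads as counted (15557, 14470 and 15207 against 10851, 10410 and 10484). The log2 fold change was -0.53 (SE 0.14, 95% interval -0.85 to -0.21, adjusted p = 0.0927 in edgeR), which is 0.694-fold. An exact permutation test gave p = 0.1, the smallest that 3 libraries against 3 allow. With the GC slope as a covariate the value was -0.50 with an adjusted p of 2.1e-06, and over 22 alternative settings it ran from -0.63 to -0.36, always negative, with adjusted p from 2.1e-06 to 0.346 and 10 of the 22 past the threshold. The highest of these p-values came from fits that left out 1 library.

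The rest of the SREBP machinery differed less. SREBF2, the gene of SREBP-2, was at 242 ± 37.7 CPM (SD, n = 3) in the controls and 228 ± 6.41 with TGF-β, and the 2 groups overlapped. SCAP, the escort protein, was at 210 ± 63.3 and 192 ± 11.9 CPM, and INSIG1, a retention protein that is itself a target of SREBPs, at 43.0 ± 2.50 and 42.8 ± 2.82 CPM. Their log2 fold changes of -0.09, -0.13 and 0.00 had adjusted p-values of 0.965, 0.973 and 0.998. INSIG2 had 11 to 65 reads in any library, and its interval of -1.31 to 0.93 leaves both directions possible.

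Among the enzymes, FASN was at 1283, 959 and 845 CPM in the controls and 937, 879 and 876 with TGF-β. The groups overlapped on this scale through control library 3, whereas in reads as counted the controls (43308, 40261 and 40274) all lay above the TGF-β libraries (37252, 36298 and 35966). The log2 fold change was -0.20 (SE 0.15, adjusted p = 0.814), and -0.16 with an adjusted p of 0.00998 once the GC slope was included. Limma on log2(FPKM + 1) gave -0.18 with an adjusted p of 0.0432, and without control library 1 the value was near 0 (-0.01). SCD was at 660 ± 93.1 and 714 ± 19.2 CPM (0.11, adjusted p = 0.918), SQLE, the squalene epoxidase, at 18.0 ± 5.47 and 22.0 ± 1.06 CPM (0.29, adjusted p = 0.792) and HMGCS1 at 11.1 ± 7.66 and 9.75 ± 1.21 CPM (-0.18, adjusted p = 0.996). The sign of HMGCS1 turned with the GC slope (0.06). Fits without 1 library put SQLE between 0.053 and 0.45.

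In the fit with the GC slope, 7 of the 31 members (22.6%) passed, against 20.3% of all genes tested, a share near that background. Of these, FDFT1 (0.13), NSDHL (0.19), HSD17B7 (0.36) and STARD4 (0.59) were higher with TGF-β, and SREBF1, FASN and ELOVL6 (-0.79) were lower. With GC offsets per library, the other way of handling GC content, 2 members (6.45%) passed against 8.46% of all genes, SREBF1 (-0.49, adjusted p = 0.00319) and ELOVL6 (-0.81, adjusted p = 0.0491). The other 5 kept their sign but did not pass, with FDFT1 at 0.04, NSDHL at 0.09, HSD17B7 at 0.06, STARD4 at 0.63 and FASN at -0.13 (adjusted p from 0.13 to 0.977). Without control library 1 the fit with the slope called 3 of the 31 (9.68%), which were SREBF1, STARD4 and ACACA, against 15.3% of all genes. Of the low genes, STARD4, which moves cholesterol between membranes, had 90, 148 and 249 reads in the controls and 179, 247 and 265 with TGF-β. ELOVL6, the elongase of C16 fatty acids, had 49, 92 and 155 reads in the controls and 38, 65 and 55 with TGF-β. For both genes the groups overlapped.

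The uridine comparison, TGF-β + uridine against TGF-β, asks whether uridine moves the lipid genes of activated cells. Its reference libraries are those already set against the controls above. No member passed the edgeR test (0 of 31), in which 0.0448% of all tested genes did. At an unadjusted p under 0.05 there were 2 members (6.45%), HSD17B7 and ACAT2, against 8.79% of all genes, and DESeq2 called 1, HSD17B7, against 1.79%. The median log2 fold change was -0.06 beside 0.02 over all genes, with 13 fitted values above 0 and 18 below. In normalised CPM groups did not overlap for 12 of 31 members (38.7%), against 25.6% of all tested genes, and in FPKM for 13 (41.9%) against 29.2%. On the CPM scale the members higher with uridine were SCAP, MVD, LSS, ACACA and FASN, and those lower were SREBF2, ACAT2, FDFT1, HSD17B7, SCD, FADS1 and FADS2, with members of the mevalonate, sterol and fatty acid branches on both sides. In FPKM the groups of ACACA, SCD and FADS1 overlapped, and those of SREBF1, MVK and NSDHL (higher) and EBP (lower) did not.

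HSD17B7 (chr1:162790702-162812817, plus strand), a ketosteroid reductase of the sterol pathway, was named after its values were seen. It had 526, 528 and 531 reads in the TGF-β libraries and 302, 331 and 271 in the uridine libraries, beside 446, 403 and 403 in the controls. In CPM the TGF-β libraries were at 13.2, 12.8 and 12.9, and those with uridine at a mean of 7.26 ± 1.28 (SD, n = 3). Every uridine library was below every TGF-β library, and in reads every uridine library was also below every control. The log2 fold change was -0.84 (SE 0.21, 95% interval -1.31 to -0.37, adjusted p = 0.261 in edgeR), or 0.56-fold. Adjusted p was 0.0202 in DESeq2, 0.0307 when only the 2 groups were fitted, 0.0274 without control library 1, 0.00815 in limma on log2(FPKM + 1) and 0.000106 with the GC slope, but 0.47 with GC offsets per library. Over 22 settings the value stayed between -0.98 and -0.69, and adjusted p between 2.8e-05 and 0.827, with 8 of the 22 past the threshold. The annotation holds the 2 pseudogenes HSD17B7P1 and HSD17B7P2, neither of which was among the genes counted. Whether reads from such copies were placed on the gene is uncertain and was not tested. The same holds for FDPS (8 annotated pseudogenes), CYP51A1 (3), FADS2 (1) and SCD (1), none of whose pseudogenes was among the genes counted.

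Fitted values of the SREBP machinery lay on both sides of 0, and none of its 5 genes passed. SREBF2 was at 234, 228 and 221 CPM in the TGF-β libraries and 203, 208 and 185 in the uridine libraries, which were all lower (-0.20, 95% interval -0.47 to 0.08, adjusted p = 0.751). SCAP was at 205, 183 and 187 CPM with TGF-β and 214, 255 and 207 with uridine, all higher (0.23, interval -0.21 to 0.67, adjusted p = 0.855). SREBF1 was at 289, 295 and 262 CPM with uridine, below the controls, and overlapped the TGF-β group (0.11, interval -0.20 to 0.43, adjusted p = 0.954). With the GC slope these 3 genes had adjusted p-values of 0.0054, 0.00187 and 0.0482 at nearly the same fold changes (-0.18, 0.26 and 0.13). With GC offsets per library the 3 did not pass, at adjusted p-values of 0.101, 0.11 and 0.591 (-0.21, 0.21 and 0.095). INSIG1 was at 42.8 ± 2.82 and 40.4 ± 3.54 CPM (-0.08, adjusted p = 0.958), and INSIG2 gave an interval of -0.84 to 1.39.

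Of the fatty acid genes, FASN was at 937, 879 and 876 CPM with TGF-β and 971, 1062 and 949 with uridine. The uridine libraries were all higher (0.15, interval -0.20 to 0.49, adjusted p = 0.913, and 0.17 with adjusted p = 0.00978 with the GC slope). SCD was at 726, 725 and 692 CPM with TGF-β and 682, 607 and 631 with uridine, all lower (-0.16, adjusted p = 0.831). FADS2, the delta-6 desaturase, was at 80.9, 75.3 and 74.1 CPM with TGF-β and 62.2, 71.3 and 58.8 with uridine, again all lower (-0.26, adjusted p = 0.805). ELOVL6, at 1.29 ± 0.312 and 2.14 ± 0.62 CPM, had the highest fitted value of the members (0.73, interval -0.11 to 1.57, adjusted p = 0.649), and its groups overlapped.

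In the mevalonate and sterol branches, ACAT2, the cytosolic acetoacetyl-CoA thiolase, was at 52.2, 53.1 and 49.0 CPM with TGF-β and 40.6, 44.6 and 40.8 with uridine. The groups were well apart, and the log2 fold change of -0.29 had an interval of -0.50 to -0.09 with an adjusted p of 0.378. MVD, the mevalonate diphosphate decarboxylase, was at 40.9, 37.9 and 34.8 CPM with TGF-β and 43.7, 53.5 and 40.9 with uridine, all higher, though the closest libraries nearly met (0.28, adjusted p = 0.836). Without 1 library the MVD value ran from 0.16 to 0.36. HMGCS1 (9.75 ± 1.21 and 9.27 ± 2.89 CPM) and SQLE (22.0 ± 1.06 and 20.0 ± 1.13 CPM) gave -0.07 and -0.14 with adjusted p-values of 0.999 and 0.975. STARD4 was at 5.65 ± 1.02 and 6.75 ± 2.79 CPM (0.26, adjusted p = 0.963).

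**Figure D3:**
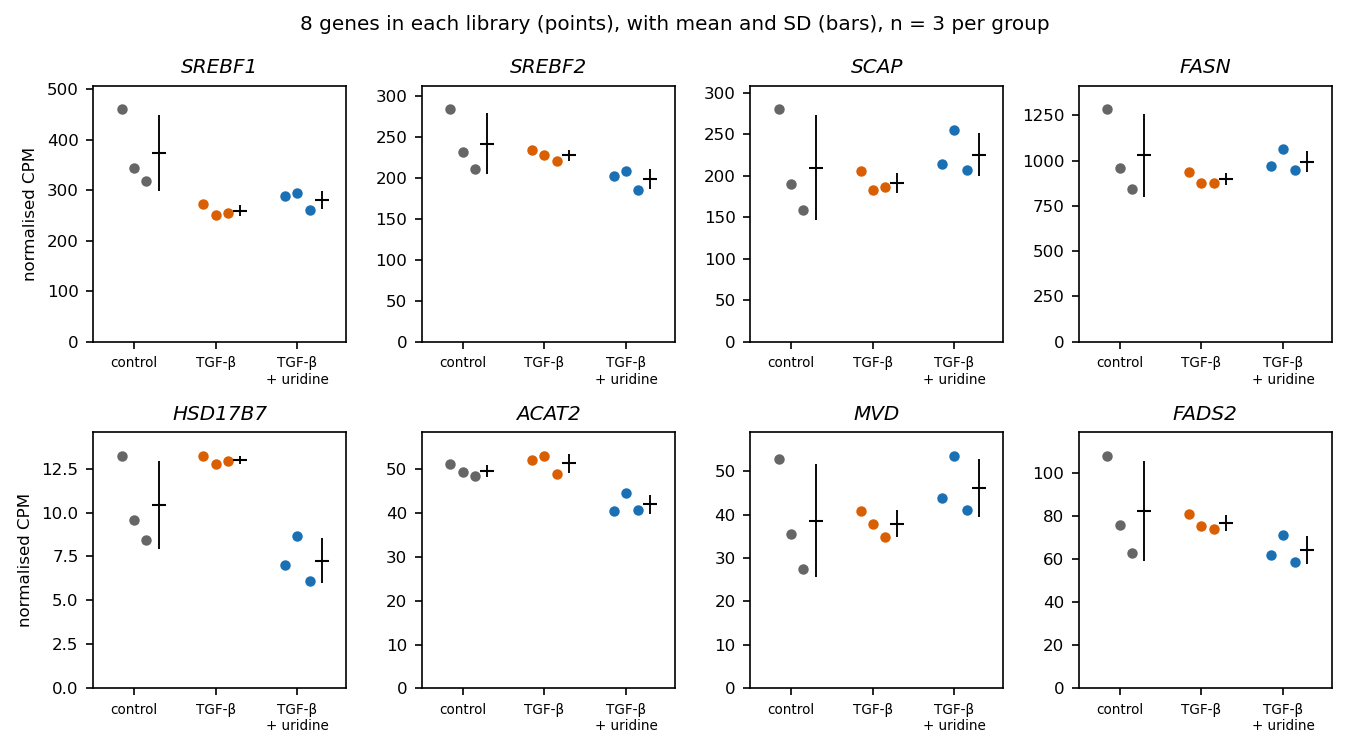
Normalised CPM of 8 members in each library (points) with the mean and SD of each group (bars, n = 3), on axes that start at 0. In HSD17B7 and ACAT2 the TGF-β + uridine points lie below all TGF-β points, in SREBF1 both treated groups lie below the controls, and control library 1 is the highest control point in every panel.

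With the GC slope as a covariate, 12 of 31 members (38.7%) passed in the uridine comparison, against 19.2% of all genes tested. Of these, 5 were higher (SCAP, SREBF1, MVD, LSS and FASN) and 7 were lower (SREBF2, ACAT2, FDFT1, HSD17B7, SCD, FADS1 and FADS2). By role they were 3 of 5 SREBP machinery genes, 2 of 7 mevalonate genes, 3 of 11 sterol genes and 4 of 7 fatty acid genes. HSD17B7 was at -0.83, and the other 11 lay between -0.29 and 0.31 on the log2 scale. The count was 11 with control library 1 left out of that fit, against 22.7% of all genes, and 0, against 2.8%, when GC content was handled by offsets per library in place of the covariate, so that these calls depend on how GC content enters the model. The fitted values of the 12 genes had the same sign with offsets, with HSD17B7 at -0.79 (SE 0.47, against 0.09 with the covariate) and the other 11 between -0.29 and 0.25.

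**Figure D4:**
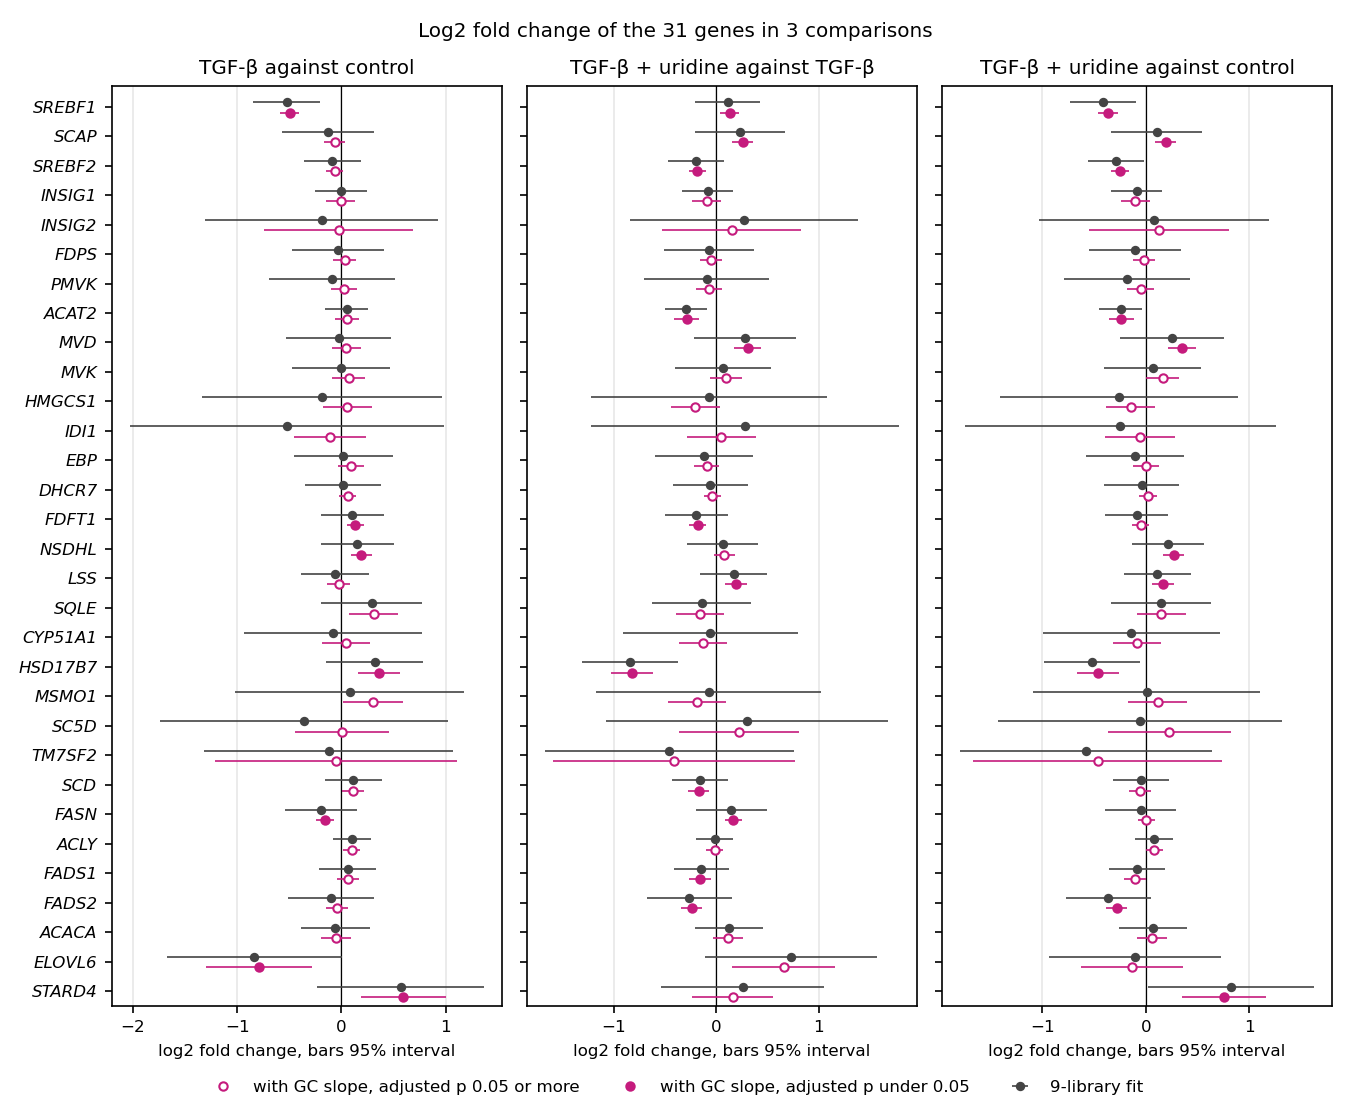
Log2 fold change of the 31 genes in the 3 comparisons, with 95% intervals, from the 9-library edgeR fit (grey) and from the fit with the GC slope of each library as a covariate (pink, filled where adjusted p was under 0.05). No grey value passed the threshold, and 7, 12 and 10 pink values did, most of them within 0.5 of 0.

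TGF-β + uridine was also compared with control, with libraries shared with both comparisons above. No member passed (0 of 31, against 5.33% of all tested genes), 5 (16.1%) had an unadjusted p under 0.05 (SREBF1, SREBF2, ACAT2, HSD17B7 and STARD4), against 17.6% of all genes, and DESeq2 called 0, against 9.66%. The median log2 fold change was -0.09 beside -0.01 over all genes. In normalised CPM groups did not overlap for 3 members (9.68%) against 19.7% of tested genes (8 members, 25.8%, against 25% in FPKM), and all 3 were lower than control, namely SREBF1, SREBF2 and ACAT2. SREBF1 had a log2 fold change of -0.41 (SE 0.14, adjusted p = 0.153). Over fits without 1 library it ran from -0.52 to -0.26, and 6 of 22 settings passed. SREBF2 was at 284, 232 and 211 CPM in the controls and 203, 208 and 185 in the TGF-β + uridine libraries, which all lay lower by a small margin (-0.29, SE 0.12, adjusted p = 0.256). The SREBF2 value ran from -0.38 to -0.17 over fits without 1 library, and 6 of 22 settings passed. ACAT2 was at 51.2, 49.3 and 48.6 CPM in the controls and 40.6, 44.6 and 40.8 (-0.24, SE 0.09, adjusted p = 0.196). In FPKM the ACAT2 groups overlapped, with 23.1 in control library 1 and 22.8 to 24.2 with TGF-β and uridine. The 8 members apart in FPKM were SREBF1, SREBF2, FDFT1, HSD17B7 and FADS2 (lower) and MVD, LSS and NSDHL (higher).

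HSD17B7 gave -0.52 (adjusted p = 0.225) and overlapped the controls in CPM, where control library 3 was at 8.45 and TGF-β + uridine library 2 at 8.65. STARD4 gave the highest value, 0.82 (interval 0.02 to 1.63, adjusted p = 0.268), with 271, 161 and 431 reads against 90, 148 and 249. Its value ran from 0.46 to 1.12 over fits without 1 library. FADS2 gave -0.36 (adjusted p = 0.371), MVD 0.26 (adjusted p = 0.69) and NSDHL, a decarboxylating sterol dehydrogenase, 0.22 (adjusted p = 0.59). Without 1 library these 3 values ran from -0.52 to -0.13, from 0.061 to 0.53 and from 0.091 to 0.38. FASN, SCD, SCAP, INSIG1, HMGCS1 and SQLE gave -0.05, -0.04, 0.11, -0.09, -0.26 and 0.15, with adjusted p from 0.831 to 0.954. With the GC slope 10 members (32.3%) passed against 31.2% of all genes, and without control library 1 the fit with no covariate called 3 (FADS1, MVD and NSDHL, 9.68% against 17.6% of all genes). Limma on log2(FPKM + 1), whose filter kept 27 members, called 5 (SREBF1, SREBF2, HSD17B7, NSDHL and FADS2, 18.5% against 14.3%).

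Genes around the pathway were described from 4 further lists. Of 10 sterol and isoprenoid neighbours, 1 passed in edgeR for TGF-β against control, where 3.38% of all tested genes did. This was NPC2, which hands cholesterol over in the lysosome, at 85.2 ± 2.70 CPM in the controls, 134 ± 4.25 with TGF-β and 118 ± 11.8 with TGF-β and uridine. It rose by 0.65 with TGF-β (adjusted p = 0.00614) and by 0.47 in the combined comparison (adjusted p = 0.0245). NPC2 passed in 21 of 22 settings with TGF-β. In the combined comparison it passed in 11 of 22, with an adjusted p of 0.148 when only the 2 groups were fitted. With GC offsets per library it passed in neither comparison (0.50, adjusted p = 0.301, and 0.36, adjusted p = 0.391). Of 21 tested other fatty acid genes 1 passed, MLXIPL, the gene of the carbohydrate-responsive factor ChREBP, with 86, 73 and 83 reads in the controls, 12, 20 and 22 with TGF-β and 24, 25 and 24 with TGF-β and uridine. It fell by 2.18 with TGF-β (adjusted p = 0.00639) and by 1.77 in the combined comparison (adjusted p = 0.0136), and no treated library reached the reads of a control. MLXIPL passed in all 20 settings with TGF-β and in 17 of 20 in the combined comparison, where adjusted p reached 0.0739 without TGF-β + uridine library 1. Of 13 genes of SREBP processing and partner factors, MBTPS1, the site-1 protease that makes the first cut in SREBPs, passed in the combined comparison (-0.46, adjusted p = 0.0201), at 90.8 ± 7.14 CPM in the controls, 79.4 ± 1.98 with TGF-β and 65.8 ± 1.69 with TGF-β and uridine. This share of 1 in 13 stands beside 5.33% of all tested genes, and MBTPS1 passed in 10 of 22 settings, with an adjusted p of 0.146 when only the 2 groups were fitted. None of 6 LXR factors and targets passed in any comparison in the fit without a covariate, at an unadjusted p under 0.05 or in DESeq2. For uridine against TGF-β none of the 4 lists had a gene past the threshold in DESeq2 or in edgeR without a covariate, and at an unadjusted p under 0.05 there was 1 sterol neighbour and 1 gene of SREBP processing, beside 8.79% of all genes. With the GC slope as a covariate these counts were higher. For uridine they were then 4 of 10 sterol neighbours, 1 of 13 genes of SREBP processing, 2 of 6 LXR genes and 3 of 21 other fatty acid genes, against 19.2% of all tested genes. In the same order they were 3, 1, 2 and 6 for TGF-β against control (20.3% of all genes) and 4, 4, 2 and 7 in the combined comparison (31.2%). With GC offsets they were 0 in every list for uridine (2.8% of all genes), 0, 0, 0 and 1 for TGF-β against control (8.46%), and 0, 1, 1 and 4 in the combined comparison (14.2%).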

How the data were processed

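The authors deposited 2 tables of the 9 LX-2 libraries by gene symbol, one of raw read counts and one of FPKM values. Per the labels, the reads were trimmed with fastp, aligned with HISAT2 to GRCh38.p13 and counted with HTSeq, with R 3.2.0 also listed. Strand settings are not given in the sources used here. Total counts were 40539751 to 41467124 per library, and the FPKM values follow from counts, library totals and 1 length per gene. Groups came from the sample titles. Counts were filtered (filterByExpr), TMM-normalised and tested in 1 model of 9 libraries with edgeR 4.0.16 (glmQLFit, glmQLFTest, R 4.3.3, two-sided, Benjamini-Hochberg adjustment over 13384 genes, threshold 0.05). For single members, CPM values entered an exact permutation test. Alternatives were DESeq2 1.42.0, limma 3.58.1 on log2(FPKM + 1) and log2(FPKM + 0.1), other scalings and filters, a replicate block, a GC slope covariate and each library left out. GC content came from GENCODE v29 (95.8% of tested genes), as did coordinates. The edgeR, DESeq2 and limma tests without a covariate were run on simulated counts for TGF-β against control. Those counts held no GC-dependent difference between libraries, and the fits with the GC slope or GC offsets were not checked on them. The members and lists were chosen with earlier results of these data known. Genes named were a fixed set (SREBF1, SREBF2, SCAP, INSIG1, INSIG2, HMGCS1, SQLE, FASN, SCD, STARD4), members past the threshold, and up to 3 called genes per further list. Other members were named after their values were seen. No 2 libraries of a group agreed within sampling noise, and single-gene intervals come from the fit.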

Additional observations from a re-analysis of the deposited data

How the results depend on the processing

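Members called numbered 0 in each of the 3 comparisons, and the alternatives moved these counts. Percentages in parentheses are shares of all genes tested in that setting, and limma counts are of 27 members. For TGF-β against control they were 1 with DESeq2 (6.43%), upper-quartile scaling (3.95%) or an unadjusted p (12.1%), 2 with limma (8.1% and 8% at pseudocounts 1 and 0.1) or with GC offsets (8.46%), 7 with the GC slope (20.3%), 5 with the GC slope and the replicate block (17.5%), 3 with the slope and control library 1 left out (15.3%), and 0 to 1 over fits without a library (1 without control library 1, 7.93%, or control library 3, 3.49%). For uridine they were 1 with DESeq2 (1.79%), limma (3.89% and 3.81%) or only 2 groups (2.44%), 2 by unadjusted p (8.79%), 12 with the slope (19.2%), 12 with the slope and block (15.5%), 11 with the slope and control library 1 left out (22.7%), and 0 to 1 over fits without a library (1 without control library 1, 1.98%). For the combined comparison they were 5 with limma (14.3% and 14.1%), with GC offsets (14.2%) or by unadjusted p (17.6%), 10 with the slope (31.2%), 10 with slope and block (28.2%), 11 with the slope and control library 1 left out (31.7%), and 0 to 3 over fits without a library (3 without control library 1, 17.6%). GC offsets, the slope with control library 1 left out, and overlap counted in FPKM were chosen after seeing the data. RLE scaling, both other filters and the stricter fold threshold gave 0 throughout.

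Same-numbered libraries correlated in their deviations at -0.197 to 0.541 and were not taken as pairs. The replicate block alone gave 0 calls and turned 1 named value, HMGCS1 with TGF-β (0.0097).

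Signs turned as follows. For FASN in the combined comparison the values were 0.00054 and 0.00055 (limma, pseudocounts 1 and 0.1), 0.0068 (slope, also with block) and 0.034 (slope without control library 1). HMGCS1 with TGF-β gave 0.080 (limma, 0.1), 0.057 (slope), 0.064 (slope and block) and 0.024 (offsets), and 0.0086 in the combined comparison (limma, 0.1). INSIG1 with TGF-β gave 0.039 and SQLE (combined) -0.085 with the slope and control library 1 left out. INSIG2 gave 0.0093 (TGF-β), -0.025 (uridine) and -0.015 (combined) with offsets and -0.062 (combined) with the slope and control library 1 left out, and STARD4 (uridine) gave -0.065 with offsets. Fits without 1 library crossed 0 for SREBF2 (TGF-β, -0.18 to 0.037), SCAP (TGF-β, -0.30 to 0.13, and combined, -0.062 to 0.35), INSIG1 (TGF-β, -0.057 to 0.035), INSIG2 (TGF-β, -0.59 to 0.18, uridine, -0.051 to 0.43, and combined, -0.33 to 0.45), HMGCS1 (TGF-β, -0.62 to 0.42, uridine, -0.31 to 0.14, and combined, -0.71 to 0.34), SQLE (combined, -0.10 to 0.30), FASN (combined, -0.17 to 0.12), SCD (TGF-β, -0.00030 to 0.20, and combined, -0.17 to 0.040), STARD4 (uridine, -0.10 to 0.51) and NSDHL (uridine, -0.036 to 0.12). The cause was not tested. Medians of the members moved by less than 0.122, the pooled spread of a difference between group means of their median log2 CPM. With TGF-β the median still turned sign in some settings. It was -0.034 in the main fit, 0.043 with the GC slope and 0.067 without control library 1. Depth limits INSIG2, TM7SF2, SC5D and ELOVL6, with at most 65, 28, 203 and 155 reads in a library.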

Other observations

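Across the 13384 tested genes, deviations from the group means were most alike between control library 1 and TGF-β + uridine library 2 (r = 0.606) and between control library 3 and TGF-β + uridine library 3 (r = 0.541), where genes are not independent replicates. The GC slopes of these libraries were 13.7, 10.3, 3.88 and 5.28.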
